A study of Homo sapiens with 6 samples.

Results

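Of 7629 genes that the deposited expression table classes as long intergenic noncoding RNA (lincRNA), 184 had a mean of 1 FPKM or more over 6 libraries and were taken as the expressed lincRNAs of TPC1 cells. FPKM is the number of fragments per kilobase of gene length, scaled to sequencing depth. The members were chosen by the class label and by their mean FPKM over all libraries of both groups, so their being expressed is a description. TPC1 is an established papillary thyroid cancer cell line, grown here in DMEM with 10% FPS (so spelled in the labels). The cells of 3 libraries were transfected with si-circ_0000839, an siRNA that targets the circRNA hsa_circ_0000839, and those of the other 3 with NC, a control siRNA; both groups were collected 60 h after transfection. The circular RNA itself has no row of its own in the gene table, and its silencing was not measured here. The comparison asks which of these lincRNAs differ in level when the circular RNA is targeted.

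LincRNAs are transcribed by RNA polymerase II from loci between protein-coding genes, and many are capped, spliced and polyadenylated like messenger RNAs but are not translated into a known protein. Some act in the nucleus on transcription or RNA processing, others bind proteins or microRNAs in the cytoplasm, and some are the precursors from which small nucleolar RNAs (snoRNAs) or microRNAs are cut. Many lincRNAs start close to a protein-coding gene and run in the opposite direction from a shared promoter region. In thyroid and other carcinomas several have been studied for roles in invasion, drug response and stress.

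The libraries held 18399558 to 19334633 reads counted on genes, as recovered from the FPKM values and gene lengths, and 10674 genes reached the same mean of 1 FPKM and were tested. The thyroid lineage factor PAX8 averaged 96.3 ± 5.26 FPKM after si-circ_0000839 and 95.8 ± 2.21 FPKM in NC (SD, n = 3 each), and FOXE1 averaged 11.6 ± 0.906 and 10.9 ± 0.597 FPKM. The differentiation genes TSHR and SLC5A5, the lineage factor NKX2-1 and the adhesion gene CDH1 were listed at 0 in all 6 libraries, as were the leukocyte genes PTPRC and CD3E. The epithelial list was split: of its 6 keratin and adhesion genes, 3 reached 1 FPKM, and the median of those 3 was 108 FPKM. Of the 9 genes of the thyroid list, 3 reached 1 FPKM. Of 7 stromal and endothelial markers LUM alone reached 1 FPKM, at 15.8 ± 2.40 FPKM after si-circ_0000839 and 22.5 ± 2.53 FPKM in NC, and its part in any lincRNA difference was not tested. When genes were put into 5 equal bins by GC content, those of the most GC-rich bin sat 0.12 above their mean over libraries (median, log2 scale) in si-circ_0000839 replicate 1 and 0.08 above in NC replicate 2, and at or below it in the other 4 libraries. Those 2 libraries come from different groups, and results are given without them where that matters.

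Sequences are shown first for 2 features of single lincRNAs. One is the transcription start of lincRNAs that carry snoRNAs in their introns. Many snoRNA host genes are known to start with a run of pyrimidines that begins at a C, a 5′ terminal oligopyrimidine tract, which places their RNAs under the same control as ribosomal protein messenger RNAs. RefSeq (GRCh38.p14) gave a promoter for 61 of the 184 lincRNAs and for 5 snoRNA hosts among them. The capitals mark the run of C and T from the start base on, with 20 bases before it, in the windows chr5:9546180-9546229 (plus strand), chr16:2155329-2155378 (minus), chr5:139274081-139274130 (plus), chr4:118278742-118278791 (plus) and chr5:112160506-112160555 (plus).
SNHG18: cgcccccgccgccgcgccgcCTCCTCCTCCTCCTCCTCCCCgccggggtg
SNHG19: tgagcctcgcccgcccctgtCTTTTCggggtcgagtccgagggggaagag
SNHG4: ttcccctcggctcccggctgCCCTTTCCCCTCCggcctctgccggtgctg
SNHG8: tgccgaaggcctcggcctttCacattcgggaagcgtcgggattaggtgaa
EPB41L4A-AS1: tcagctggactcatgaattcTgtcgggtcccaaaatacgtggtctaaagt

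A C-start run of at least 5 pyrimidines was present in 3 of these 5 hosts, in 5 of the 61 lincRNAs with a promoter (8.20%) and in 4.07% of all 35116 RefSeq promoters. The run was 21 bases in SNHG18, 13 in SNHG4 and 6 in SNHG19. For SNHG8 the RefSeq start lies 53 bases from the GENCODE start, so its window depends on the annotation.

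The other is the microRNAs encoded inside lincRNA genes, shown as RefSeq mature sequences with the seed (bases 2 to 8) in capitals. MIR22HG is the host of miR-22, MIR3142HG of miR-146a, LINC00472 of miR-30a and miR-30c-2, and CYTOR and MIR4435-2HG each contain a copy of miR-4435. The arms miR-30a-5p and miR-30c-5p share the seed GUAAACA, and the copies of miR-4435 are identical.
hsa-miR-22-3p: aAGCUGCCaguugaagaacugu
hsa-miR-146a-5p: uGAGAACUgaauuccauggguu
hsa-miR-30a-5p: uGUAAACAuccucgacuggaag
hsa-miR-30c-5p: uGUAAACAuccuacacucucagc
hsa-miR-4435: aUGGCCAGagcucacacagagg

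The expressed lincRNAs were a small and uneven part of the RNA. They took 0.122%, 0.127% and 0.128% of reads after si-circ_0000839 and 0.134%, 0.127% and 0.133% in NC, so the groups overlapped only through NC replicate 2. In bulk RNA, fewer cells with a transcript and less of it per cell cannot be told apart. By FPKM they took 0.251%, 0.261% and 0.260% after si-circ_0000839, against 0.266%, 0.253% and 0.270% in NC, again with overlap. All 184 were above 0 in all 6 libraries. Only 19 reached a mean of 10 FPKM, and these 19 held 45.04% of the reads of all 184. A further 20 lay between 5 and 10 FPKM, 59 between 2 and 5, and 86 between 1 and 2. NORAD alone took 9.89% of lincRNA reads because it is long as well as abundant, and the 10 lincRNAs with the most reads took 39.3%.

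SNHG8, a host of the snoRNA SNORA24 on chromosome 4 (chr4:118278709-118279823, GRCh38), was the most abundant per length. Its level was 38.8, 41.8 and 43.3 FPKM after si-circ_0000839, against 38.5, 51.3 and 43.0 FPKM in NC. The groups overlapped, and NC replicate 2 was the highest of the 6. The log2 change was -0.09 (SE 0.10), with an adjusted p of 0.761 by limma; it was 0.02 without NC replicate 2, -0.18 without NC replicate 1 and -0.05 without si-circ_0000839 replicate 1.

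LINC01116 followed, an RNA studied in several carcinomas for a link to invasion, at chr2:176629589-176637931 on the minus strand. It was at 39.5, 40.1 and 40.1 FPKM after si-circ_0000839, against 34.6, 37.4 and 38.5 FPKM in NC. All 3 si-circ_0000839 values lay above all 3 NC values, by a small margin. The log2 change was 0.11 (SE 0.07, adjusted p 0.528 by limma), and 0.07 without NC replicate 1. Its first exon overlaps that of LINC01117 on the other strand by 222 bases, and the strand setting of the counting is not given in the sources used here, so reads in the overlap cannot be assigned to either.

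The next abundant lincRNAs were LINC00973 (24.02 FPKM), NORAD (23.8 FPKM), AL356234.3 (23.5 FPKM), LINC00958 (22.7 FPKM) and ITGB1-DT (21.2 FPKM), means over the 6 libraries. These 5 levels do not separate beyond their spread: LINC00973 ranged from 21.6 to 26.7 FPKM over the libraries, and ITGB1-DT from 19.5 to 23.0 FPKM. ITGB1-DT overlaps the integrin beta 1 gene ITGB1 in position, and its exons by 42 bases on the other strand. By the annotation used, it is not among the lincRNAs counted below at a divergent start. UCA1, an RNA first described in urothelial carcinoma, had a mean of 13.8 FPKM. It was at 13.2, 13.7 and 13.1 FPKM after si-circ_0000839, against 15.1, 14.2 and 13.7 FPKM in NC, with a log2 change of -0.10 (SE 0.07, adjusted p 0.610 by limma), and -0.06 without NC replicate 1. The UCA1 groups touched at 13.7 FPKM but did not cross.

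**Figure D1:**
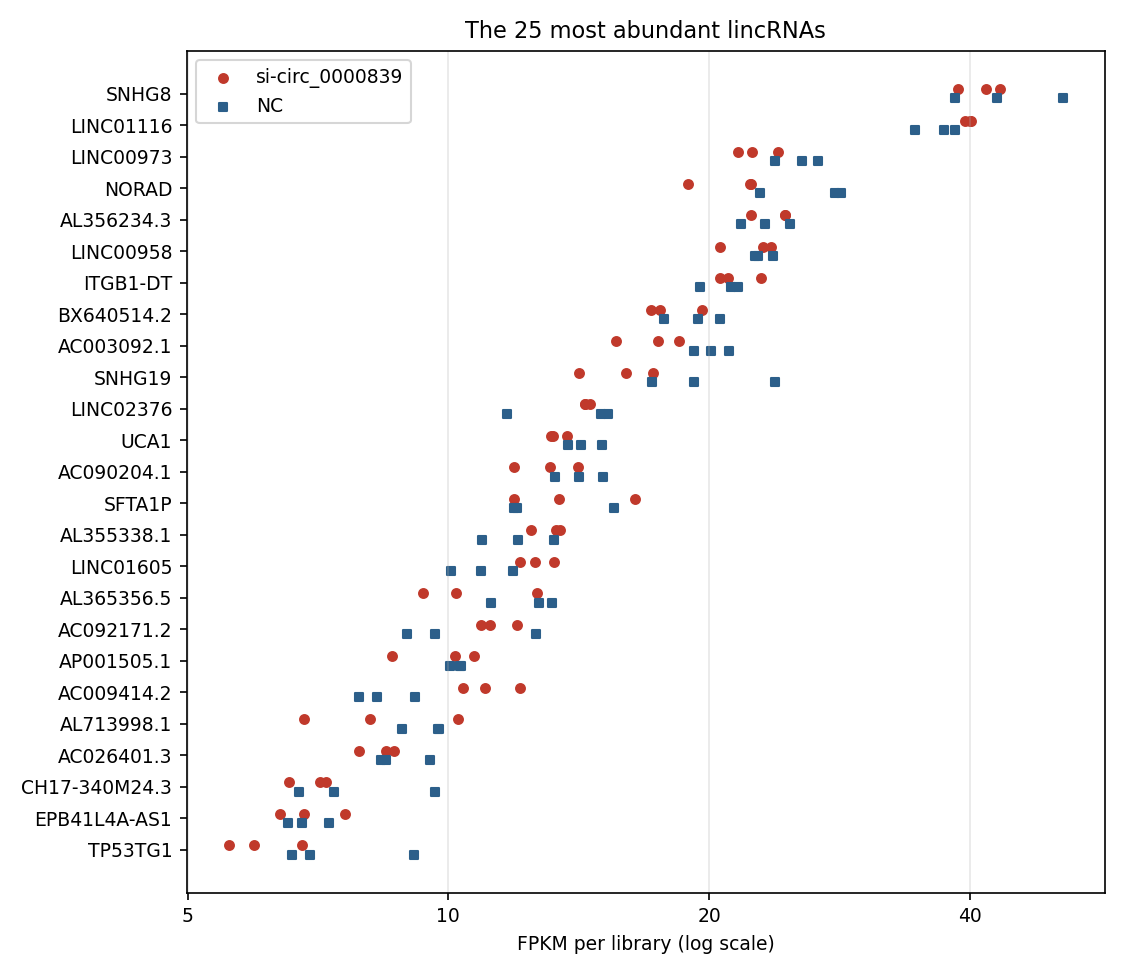
FPKM in each library (x axis, log scale) of the 25 lincRNAs with the highest means, ordered by mean; red circles are the 3 si-circ_0000839 libraries and blue squares the 3 NC libraries. SNHG8 and LINC01116 stand near 40 FPKM, above a group of 5 lincRNAs with means of 21.2 to 24.02 FPKM, and for most lincRNAs the groups overlap.

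At the lower end, the members just inside the threshold were ZNF674-AS1 (1.02 FPKM) and AC102953.2 (1.01 FPKM), and the lincRNAs just outside were AC010735.2 (0.993 FPKM) and AC103740.2 (0.990 FPKM). MALAT1, a nuclear RNA that is among the most abundant of many cell types, was outside the set. It was listed at 0.364, 0.616 and 0.400 FPKM after si-circ_0000839 and at 0.712, 0.411 and 0.506 FPKM in NC. In all, 47 lincRNAs of the lists of known long noncoding RNAs were under 1 FPKM, and 67 listed genes carry another class in the table, among them GAS5, SNHG1, SNHG5 and SNHG6.

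By name, 97 of the 184 carry only the name of a genomic clone, 40 a LINC number, and 77 matched a RefSeq gene, 73 of them a long noncoding RNA and 4 a transcribed pseudogene. They lie on 22 chromosomes. The median member had 58.8 reads per library, against 608 over all tested genes, and a within-group coefficient of variation of 14.4%, against 8.55%. The steadiest were LINC00665 at 3.06%, CYTOR at 3.16% and UCA1 at 3.74%. The least steady was AL162413.1 at 49.8%, on 10 reads per library. LINC00665 and AL162413.1 were named after their values were seen.

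No lincRNA passed the test between si-circ_0000839 and NC. In limma's test on log2(FPKM + 1), 0 of 184 had a Benjamini-Hochberg adjusted p under 0.05, where 41 of all 10674 genes did (0.384%), 14 higher (0.131%) and 27 lower (0.253%). With voom on the recovered reads the count was also 0. An unadjusted p under 0.05 was reached by 39 lincRNAs, 15 higher and 24 lower (21.2%), against 12.6% of all genes (6.31% higher and 6.31% lower). With voom 24 of 184 reached it. The share over all genes in the voom fit is not given here, so that count has no background to be read against. The groups did not overlap for 38 lincRNAs, 19 higher and 19 lower (20.7%), beside 18.1% over all genes (10.6% higher and 7.55% lower). The 14 to 27 split of all calls depends on scaling: 34.1% of calls were higher here, 46.0% with quantile normalization, 58.2% after rescaling to TPM, 56.5% with voom and 50.4% once GC and length trends were removed.

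The changes were small. The lincRNA changes ran from -0.50 to 0.61 on the log2 scale, with a median of -0.07, against 0.01 over all genes. Of the 184, 68 were above 0 and 116 below (63.0%, beside 48.2% of all genes). For 183 the 95% interval lay within 1 log2 unit of 0, and for 164 it lay within a 1.5-fold change on the log2(FPKM + 1) scale, which understates changes of low genes. Antisense RNAs, another noncoding class of the table, had a median of -0.08 over 194 genes. Of these, 37 had an unadjusted p under 0.05 by limma (19.1%), 7 higher and 30 lower, beside 21.2% of lincRNAs and 12.6% of all genes. The lincRNA median was -0.01 after GC and length trends were removed from each library, and -0.04 without NC replicate 2. Members with a GC content of 55% or more had a median of -0.11 (41 lincRNAs), while all genes of that GC content had 0.03. The gap was smaller at lower GC content. At 45 to 55% the medians were -0.04 (100 lincRNAs) and 0.02, and under 45% they were -0.07 (43 lincRNAs) and -0.04.

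**Figure D2:**
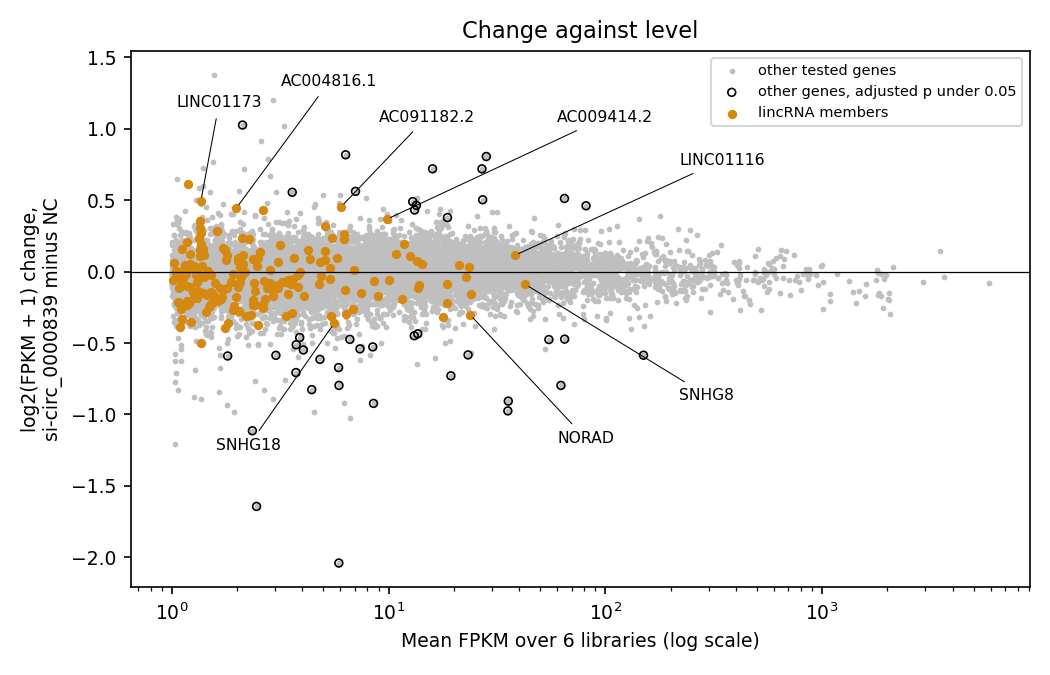
Log2(FPKM + 1) change, si-circ_0000839 minus NC (y axis), against mean FPKM over the 6 libraries (x axis, log scale) for 10674 genes; orange points are the 184 lincRNAs, grey points the other genes and black rings the other genes with an adjusted p under 0.05. No orange point is ringed, and all lie between -0.50 and 0.61.

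The lincRNA with the smallest p among those lower after si-circ_0000839 was SNHG18, the host of the snoRNA SNORD123 at chr5:9546200-9550609, whose start sequence is printed above. It was at 5.003, 4.69 and 4.71 FPKM after si-circ_0000839, against 6.60, 6.65 and 6.08 FPKM in NC. All 3 si-circ_0000839 libraries lay below all 3 NC libraries, and each group was tight. The ratio of means was 0.745 and the log2 change -0.36 (SE 0.07, 95% interval -0.52 to -0.20), with an adjusted p of 0.083 by limma. It was called when GC and length trends were removed (adjusted p 0.021, limma) and when only genes of at least 5 FPKM were tested (0.043). Those fits called 256 of 10670 and 68 of 6068 genes, in that order, against 41 of 10674 in the fit without these changes. Over the 19 alternatives the adjusted p ran from 0.021 to 0.277, and the change from -0.43 to -0.34.

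LINC01173, on chromosome 2, had the same adjusted p in the other direction but rests on few reads. Its counts were 10, 13 and 10 reads after si-circ_0000839, against 5, 6 and 7 reads in NC. That is 1.65, 1.997 and 1.64 FPKM after si-circ_0000839 and 0.779, 0.997 and 1.11 FPKM in NC, with no overlap. The log2 change was 0.49 (SE 0.10, adjusted p 0.083 by limma). It was called with quantile normalization (0.046) and with GC and length trends removed (0.014); over 17 alternatives the adjusted p ran from 0.014 to 0.381.

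AC091182.2, on chromosome 8, was at 8.11, 6.51 and 6.77 FPKM after si-circ_0000839, against 4.73, 5.42 and 4.63 FPKM in NC. The groups stood apart, with a log2 change of 0.45 (SE 0.09, adjusted p 0.086 by limma). It was called under 3 alternatives: a minimum of 5 FPKM (0.029), rescaling to TPM (0.049) and removal of GC and length trends (0.034); the range over 19 alternatives was 0.029 to 0.381. LINC01605, its neighbour 14617 bases away on the same strand, had 12.6, 13.2 and 12.1 FPKM after si-circ_0000839 and 11.9, 10.1 and 10.9 FPKM in NC, a log2 change of 0.19 (SE 0.08, adjusted p 0.347).

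AC004816.1 starts 671 bases from MAP3K9, a kinase of the stress-activated cascade, on the other strand. It was at 2.36, 2.77 and 2.20 FPKM after si-circ_0000839, against 1.66, 1.38 and 1.54 FPKM in NC. The log2 change was 0.45 (SE 0.09, adjusted p 0.091 by limma, and 0.014 with GC and length trends removed; range 0.014 to 0.381 over 18 alternatives). AC009414.2 starts 812 bases from CRIM1, which encodes a membrane protein that binds bone morphogenetic proteins. It was at 11.0, 12.1 and 10.4 FPKM after si-circ_0000839, against 9.15, 8.27 and 7.89 FPKM in NC. Its log2 change was 0.37 (SE 0.08, adjusted p 0.104 by limma). It too was called with a minimum of 5 FPKM (0.048) and with GC and length trends removed (0.021); the range over 19 alternatives was 0.021 to 0.381.

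AC008764.2 was called once, when NC replicate 1 was left out (log2 change 0.78, adjusted p 0.044 by limma), and is named for that reason after its values were seen. It was at 3.63, 3.11 and 2.46 FPKM after si-circ_0000839, against 3.84, 1.32 and 1.40 FPKM in NC. NC replicate 1 was the highest of all 6 libraries, and with it the log2 change was 0.43 (SE 0.24, adjusted p 0.496). Over 18 alternatives its adjusted p ran from 0.044 to 0.845.

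**Figure D3:**
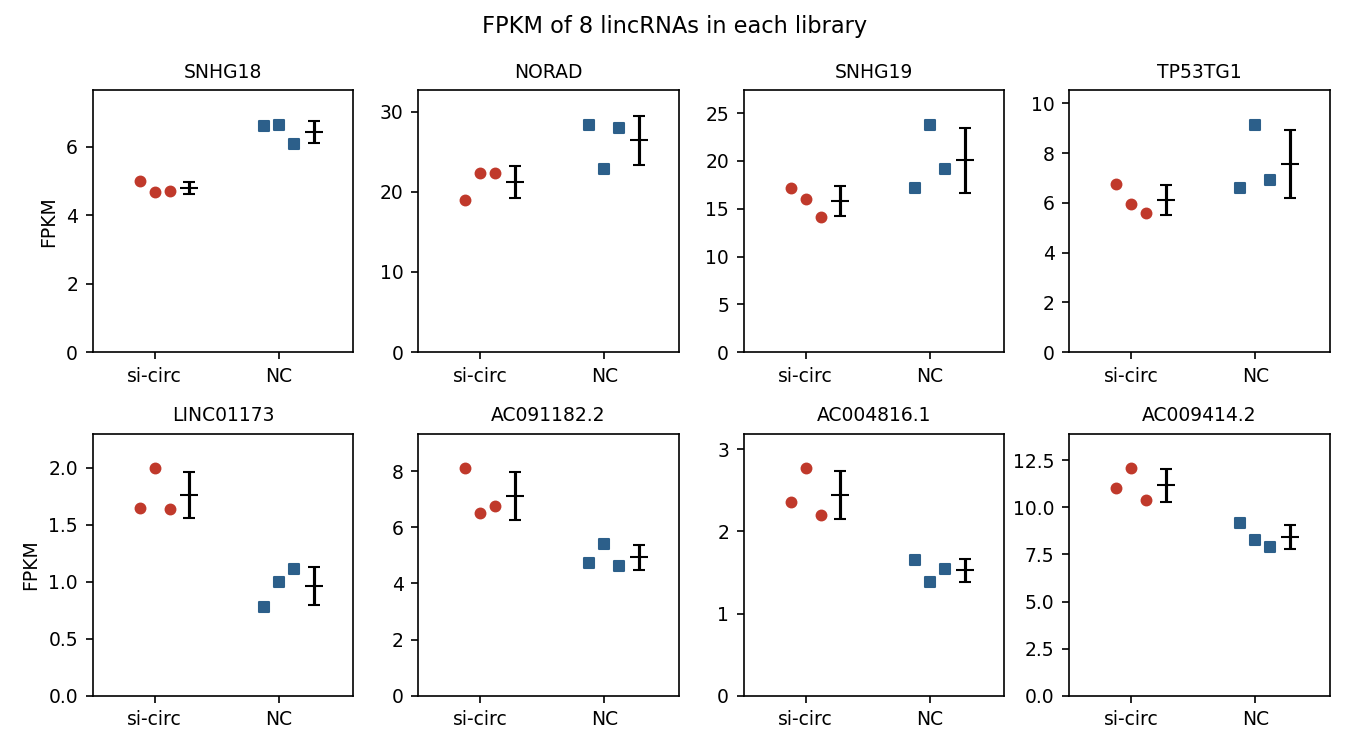
FPKM in each library (y axis, from 0) of 8 lincRNAs, with red circles for si-circ_0000839 and blue squares for NC; black bars give the mean and SD of 3 libraries. SNHG18 and NORAD lie lower after si-circ_0000839 without overlap, SNHG19 and TP53TG1 lie lower with an overlap, and LINC01173, AC091182.2, AC004816.1 and AC009414.2 lie higher without overlap.

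Of the other named lincRNAs whose groups stood apart, LINC01117, LINC02188, SH3RF3-AS1, AC096888.1 and AC106782.2 were higher after si-circ_0000839, with log2 changes of 0.26 to 0.32 and adjusted p values of 0.235 to 0.435 by limma. For AC106782.2 the change of 0.30 was 0.10 without NC replicate 3. LINC01117 was at 6.01, 5.16 and 6.14 FPKM after si-circ_0000839, against 5.09, 4.49 and 3.76 FPKM in NC, a narrow gap. AP002360.1, AC092327.2, AP006621.3, AC005736.1, AL355001.2 and AC084033.3 were lower, with log2 changes of -0.40 to -0.29 and adjusted p values of 0.183 to 0.250.

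AL355001.2, a single-exon RNA that starts 222 bases from the zinc finger gene ZMYM5, was at 2.11, 2.01 and 1.78 FPKM after si-circ_0000839, against 2.60, 2.82 and 2.56 FPKM in NC. AC005736.1, 2801 bases from the adenylate cyclase gene ADCY9, was at 3.26, 2.88 and 2.54 FPKM after si-circ_0000839, against 3.90, 3.86 and 3.66 FPKM in NC. Both were lower in every si-circ_0000839 library than in any NC library, with log2 changes of -0.30 (SE 0.08, adjusted p 0.183) and -0.31 (SE 0.09, adjusted p 0.198) by limma. AP002360.1, beside EMSY, was at 0.940, 1.69 and 1.59 FPKM after si-circ_0000839, against 2.26, 2.12 and 2.02 FPKM in NC. Its lowest value, in si-circ_0000839 replicate 1, stands well below the rest, and the log2 change was -0.40 (SE 0.12, adjusted p 0.228); without that library it was -0.25. AC003092.1, the most abundant of the clone-named lincRNAs with groups apart, was at 15.6, 17.4 and 18.5 FPKM after si-circ_0000839, against 19.2, 20.1 and 21.1 FPKM in NC (log2 change -0.22, SE 0.08, adjusted p 0.287). LINC02188 was at 1.99, 1.76 and 1.88 FPKM after si-circ_0000839, against 1.17, 1.52 and 1.38 FPKM in NC, the reverse order of groups (log2 change 0.29, SE 0.09, adjusted p 0.235).

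Among the 8 lincRNAs with a snoRNA inside, 4 were above 0 and 4 below, and 1 had groups that did not overlap (12.5%, beside 18.1% of all genes). SNHG19, the host of SNORD60 on chromosome 16, was at 17.2, 16.1 and 14.1 FPKM after si-circ_0000839, against 17.2, 23.8 and 19.2 FPKM in NC. The highest si-circ_0000839 value and the lowest NC value were both 17.2 FPKM, so the groups met there; the log2 change was -0.32 (SE 0.11, adjusted p 0.287 by limma), and without NC replicate 2 it was -0.19. SNHG4, whose exons overlap MATR3 on the same strand, averaged 1.48 ± 0.01 FPKM after si-circ_0000839 and 1.47 ± 0.14 FPKM in NC. EPB41L4A-AS1 averaged 6.94 ± 0.61 and 6.87 ± 0.39 FPKM in the same order (SD, n = 3 each). SNHG25 had 3 to 11 reads in a library and was not called in any fit, with log2 changes of -0.15 to 0.45 over 17 alternatives. The 3 hosts with a C-start run printed above therefore had log2 changes of -0.36, -0.32 and 0.01.

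Of 6 lincRNAs with a microRNA inside, none had an unadjusted p under 0.05, and CYTOR alone had groups that did not overlap (16.7%). Over all genes these shares were 12.6% and 18.1%. CYTOR, also known as LINC00152 and studied in thyroid and other cancers, was at 2.20, 2.26 and 2.34 FPKM after si-circ_0000839, against 2.001, 2.08 and 1.96 FPKM in NC. Its log2 change was 0.12 (SE 0.08, adjusted p 0.588 by limma). MIR4435-2HG, which holds the other copy of miR-4435, averaged 1.85 ± 0.19 FPKM after si-circ_0000839 and 1.70 ± 0.15 FPKM in NC. MIR22HG averaged 3.10 ± 0.34 and 3.32 ± 0.48 FPKM, and MIR3142HG 5.97 ± 0.36 and 6.63 ± 0.63 FPKM, in that order of groups. LINC00472 averaged 1.22 ± 0.04 FPKM after si-circ_0000839 and 1.19 ± 0.26 FPKM in NC. The levels are those of the host RNAs, and the mature microRNAs were not measured.

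Among p53-responsive RNAs, NORAD and TP53TG1 were expressed. NORAD, a cytoplasmic RNA induced by DNA damage, was at 18.9, 22.3 and 22.3 FPKM after si-circ_0000839, against 28.4, 22.9 and 27.99 FPKM in NC. All si-circ_0000839 values lay below all NC values, though only narrowly below NC replicate 2. The log2 change was -0.30 (SE 0.10, 95% interval -0.52 to -0.09, adjusted p 0.246 by limma), on a mean of 2399 reads per library. TP53TG1 was at 6.77, 5.96 and 5.58 FPKM after si-circ_0000839, against 6.60, 9.14 and 6.93 FPKM in NC. NC replicate 2 was the highest and the groups overlapped; the log2 change was -0.26 (SE 0.11, adjusted p 0.374), and without NC replicate 2 it was -0.13. Of RNAs linked to invasion, 8 were expressed, 4 with a change above 0 and 4 below. The groups did not overlap for 5 of the 8, 3 higher and 2 lower (62.5%, beside 18.1% of all genes). LINC01711 had a log2 change of 0.23 (adjusted p 0.348, and 0.13 as the change without NC replicate 1), LINC01705 of -0.38 (adjusted p 0.287) and CRNDE of -0.14 (adjusted p 0.528), all by limma.

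Many of the lincRNAs sit next to a coding gene. Of the 184, 50 start within 2000 bases of an opposite-strand coding gene start, or overlap it by up to 500 bases. The partner was tested in 43 of these pairs, and limma called none; 6 had an unadjusted p under 0.05 (6 of 43, near the 12.6% of all genes). The partner was the more abundant RNA in 37 pairs, with a median ratio of partner to lincRNA of 2.59 in FPKM.

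The divergent lincRNAs had a median log2 change of -0.13, and 37 of 50 were below 0 (74%). The other 134 had a median of -0.04, with 79 below 0 (59.0%). Over all genes 48.2% were below 0. An unadjusted p under 0.05 by limma was reached by 17 of the 50 (34%) and 22 of the 134 (16.4%), beside 12.6% of all genes. The coding partners had a median of 0.06. With GC and length trends removed the medians were -0.10 for divergent lincRNAs, 0.01 for the others and 0.02 for the partners. Divergent lincRNAs have a median GC content of 52.6%, against 47.8% in the others. No test was made of these medians or shares.

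The sign of the change was the same in lincRNA and partner for 21 of 43 pairs, and Pearson's r of the changes over the 43 pairs was 0.32, a description only, since both genes of a pair come from the same libraries. In the CRIM1 pair both were higher: CRIM1 was at 19.9, 21.3 and 21.1 FPKM after si-circ_0000839, against 17.4, 13.7 and 18.3 FPKM in NC (log2 change 0.33, SE 0.10, adjusted p 0.221 by limma). MAP3K9 was at 2.56, 2.71 and 2.52 FPKM after si-circ_0000839, against 2.28, 2.21 and 2.33 FPKM in NC, also without overlap (log2 change 0.14, adjusted p 0.510). SEMA5A, a semaphorin gene 125 bases from SNHG18, had a log2 change of 0.09 (adjusted p 0.733), opposite in sign to SNHG18. TRAM2 was at 20.6, 19.3 and 19.6 FPKM after si-circ_0000839, against 16.6, 14.5 and 15.9 FPKM in NC (log2 change 0.32, adjusted p 0.106), while its lincRNA TRAM2-AS1 had -0.07. INSIG1, a regulator of sterol synthesis, had -0.30 (adjusted p 0.194) beside -0.24 for AC144652.1. The TRAM2 and INSIG1 pairs were named after their values were seen.

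**Figure D4:**
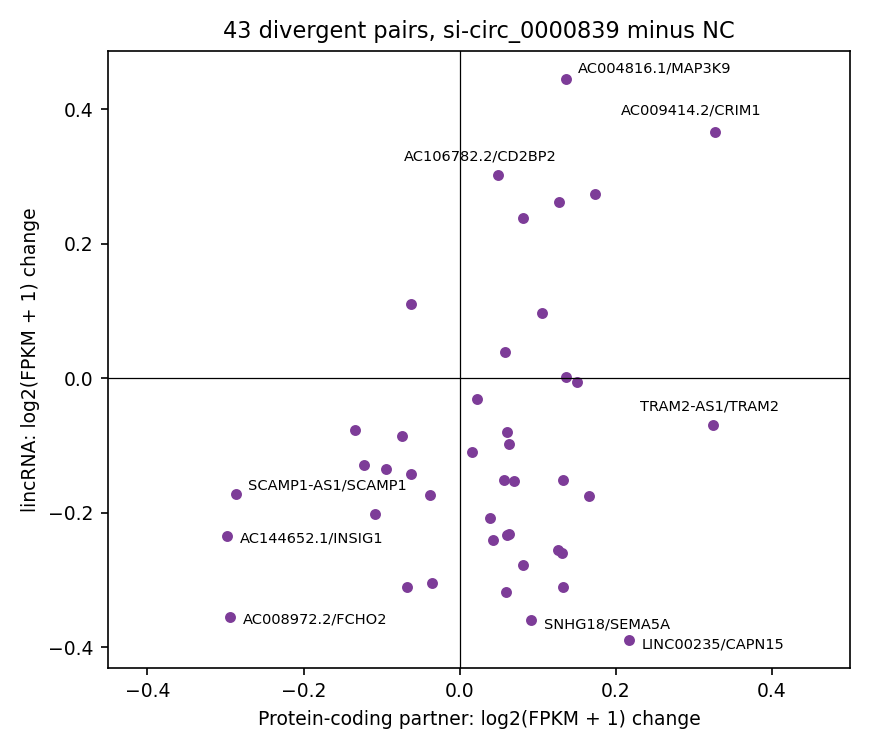
Log2(FPKM + 1) change, si-circ_0000839 minus NC, of the lincRNA (y axis) against that of its divergent coding partner (x axis) for the 43 pairs with a tested partner. Most points lie below 0 on the y axis on both sides of 0 on the x axis, and the CRIM1 and MAP3K9 pairs stand at the upper right.

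**Figure D5:**
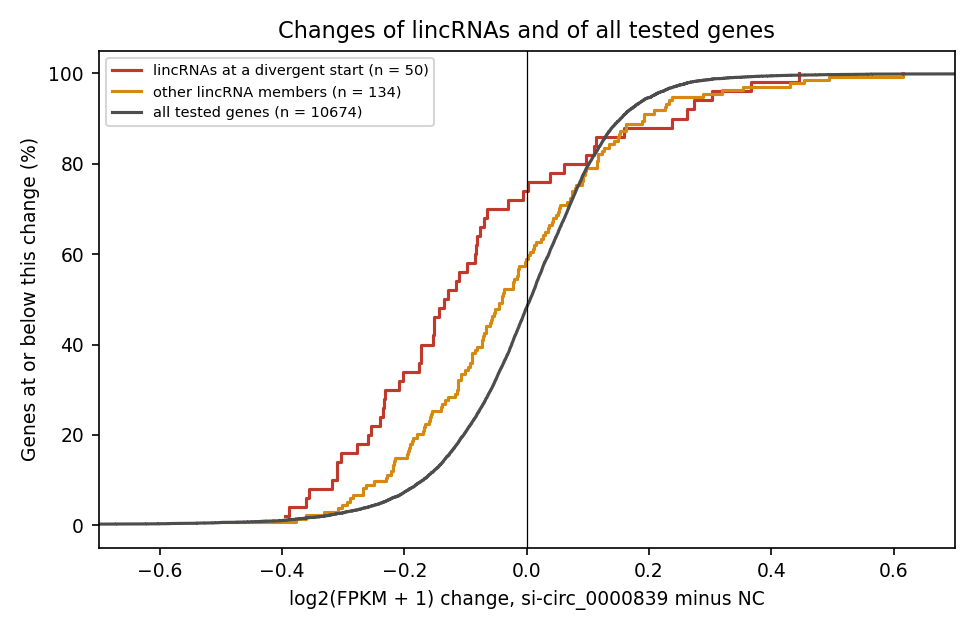
Share of genes (y axis, percent) at or below each log2(FPKM + 1) change, si-circ_0000839 minus NC (x axis), for 50 lincRNAs at a divergent start, the other 134 lincRNAs and all 10674 tested genes. The divergent curve lies left of the others below 0, with medians of -0.13, -0.04 and 0.01.

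By position, 152 lincRNAs have no exon overlap with another gene, 27 overlap an exon on the other strand and 7 on the same strand. Those without overlap had a median log2 change of -0.07 and those with an opposite-strand overlap 0.01. Of the nearest coding genes of the 184 lincRNAs 122 were tested, and limma called none; 15 had an unadjusted p under 0.05 (12.3%, near the 12.6% of all genes). The smallest p among neighbours of the named lincRNAs was that of OGFRL1, 35394 bases from LINC00472, at 5.59, 6.59 and 5.90 FPKM after si-circ_0000839, against 10.1, 7.63 and 9.64 FPKM in NC (log2 change -0.52, adjusted p 0.074 by limma). LINC00472 itself showed 1.27, 1.18 and 1.22 FPKM after si-circ_0000839, against 1.48, 0.991 and 1.10 FPKM in NC, inside the range of NC.

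PVT1, a microRNA host on chromosome 8, lies 53099 bases from the oncogene MYC. PVT1 was at 2.91, 3.06 and 2.58 FPKM after si-circ_0000839, against 2.57, 2.99 and 2.87 FPKM in NC, with mixed groups and a log2 change of 0.01 (adjusted p 0.963 by limma). MYC, a transcription factor of cell growth, was at 39.9, 34.3 and 35.0 FPKM after si-circ_0000839, against 26.6, 25.4 and 29.1 FPKM in NC (log2 change 0.42, SE 0.08, adjusted p 0.074), without overlap. MYC was called with voom (adjusted p 0.036) and with GC and length trends removed (0.043, limma), and with the trends removed OGFRL1 (0.015) and TRAM2 (0.036) were called as well. The PVT1 pair was named after these values were seen, and the difference between its genes was not tested.

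Genes whose proteins bind, process or degrade long noncoding RNAs were examined in 8 lists, with 149 genes tested. None was called by limma, and voom called none either. An unadjusted p under 0.05 was reached by 6 (4.03%, beside 12.6% of all genes), a count that depends on the fit. With GC and length trends removed it was 19 of 149. Without si-circ_0000839 replicate 1 and NC replicate 2 it was 16, and without NC replicate 3 it was 3. The share over all genes in those fits is not given here. Of 25 paraspeckle proteins, which assemble on NEAT1, the smallest p was that of SMARCA4, at 16.3, 14.6 and 14.4 FPKM after si-circ_0000839 and 12.8, 13.0 and 12.6 FPKM in NC (log2 change 0.22, adjusted p 0.248). Of 21 nuclear speckle proteins it was SRRM2 (0.18, adjusted p 0.325), and of 17 snoRNA-protein components NOLC1 (0.13, adjusted p 0.478). Of 25 exosome factors, which degrade nuclear RNA, it was the nuclease DIS3, at 1.20, 1.84 and 1.65 FPKM after si-circ_0000839 and 2.46, 1.89 and 2.16 FPKM in NC (log2 change -0.31, adjusted p 0.296). Of 19 nonsense-mediated decay factors it was EIF4A3 (0.12, adjusted p 0.471). Of 16 Integrator subunits it was INTS1 (0.14, adjusted p 0.528), of 12 genes of Polycomb repressive complex 2 it was EZH2 (-0.13, adjusted p 0.534), and of 15 Microprocessor and 3′ end genes it was POP1 (0.14, adjusted p 0.427). The list medians lay between -0.02 and 0.04.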

How the data were processed

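RNA was sequenced from 6 TPC1 libraries, 3 of each group. The authors deposited FPKM per gene with gene length, coordinates and class, per the file headers. The submitters' processing notes list HISAT2 2.0.5 and featureCounts 1.5.0-p3. The strand setting is not given in the sources used here, nor is the annotation. All 58735 genes had the same coordinates, class and exon length in GENCODE 29, so coordinates are GRCh38. Multiplied by gene length, the FPKM of a library moved in steps of 1 read (100% whole within 0.01), which gave reads per gene. The depth implied by the FPKM was not equal to the recovered reads. It was 0.958 times them in NC replicate 2, the lowest, and 1.02 times in NC replicate 3, the highest. The voom fit used the recovered reads as depth, so it also differs from the other fits in scaling.

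Limma 3.58.1 in R 4.3.3 was run two-sided on log2(FPKM + 1) with a trended prior variance and group as the only term, for the 10674 genes whose mean FPKM was 1 or more. Calls have a Benjamini-Hochberg adjusted p under 0.05 over all of them. Folds are ratios of mean FPKM. Whether the cultures were separate is not in the labels, so p-values measure the spread between these samples, which may be technical. An exact permutation test of 3 against 3 could not go below 0.1 and was not used. The fit was tested on simulated data.

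Named lincRNAs are any called, the 12 most abundant, the 8 largest rises and 8 largest falls (log2 change, at least 10 reads, groups apart), the 5 with the smallest p, and members of lists of known long noncoding RNAs. Members and lists were chosen with earlier results of these data known. Alternatives changed pseudocount, filter, scaling, prior, block, GC and length, and left out libraries; voom on recovered reads was added after the data were seen. Some listed genes are not reported here.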

Additional observations from a re-analysis of the deposited data

How the results depend on the processing

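The count of lincRNAs called was 0 of 184 and stayed 0 under most alternatives. It was 3 of 39 with a minimum of 5 FPKM, where 68 of all 6068 genes were called. With quantile normalization it was 1 of 184, beside 63 of 10674 genes, and after rescaling to TPM 1 of 184, beside 55 of 10674. With GC and length trends removed it was 5 of 184, beside 256 of all 10670 genes. It was 0 to 1 with each library left out. The count over all genes was 41, and was 4 with no filter, 68 with a minimum of 5 FPKM, 63 with quantile normalization, 55 after rescaling to TPM, 256 with GC and length trends removed, 85 with voom, 26 without the 2 libraries in which GC-rich genes stood highest (si-circ_0000839 replicate 1, NC replicate 2), and 20 to 38 with each library left out. The median lincRNA change was -0.039 with a minimum of 5 FPKM, -0.011 with GC and length trends removed, -0.096 with voom, and -0.066 to -0.039 with each library left out. The mean share of FPKM was 0.246% without the most abundant lincRNA. No partner list gained a call under any alternative. Fewer genes were tested at the higher minimum, and the cause of these differences was not tested.

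Changes near 0 turned sign in some fits. With GC and length trends removed, LINC00973 had 0.0062 and SNHG4 -0.012. Without those 2 libraries, SNHG8 had 0.064, LINC00958 0.038, SNHG4 -0.035 and LINC00472 -0.054. With 1 or those 2 libraries left out, the change ran from -0.18 to 0.064 in SNHG8, -0.015 to 0.075 in AL356234.3, -0.074 to 0.038 in LINC00958, -0.064 to 0.12 in LINC02376, -0.048 to 0.061 in EPB41L4A-AS1, -0.14 to 0.016 in MIR22HG, -0.039 to 0.041 in SNHG4, -0.15 to 0.45 in SNHG25 and -0.054 to 0.12 in LINC00472. None of these 10 lincRNAs was called in any fit.

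The groups share replicate numbers. Libraries with the same number had correlations of -0.149, -0.289 and 0.150 in their deviations, and si-circ_0000839 replicate 1 correlated best with NC replicate 2 (0.353), so the numbers were not taken as pairs. With the replicate number as a block 35 genes and 0 lincRNAs were called. The count tests DESeq2 and edgeR were not run, and voom was the only fit made on the recovered reads. At a median of 58.8 reads per lincRNA, counting error limits what small differences can show.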
